A study of Rattus norvegicus with 35 samples.

Results

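Glutathione S-transferases were followed in rat liver through the genes Gsta3, Gsta4, Gsta2, Gstm1, Gstm4, Gstp1, Gstt1, Gsto1, Gstk1 and Mgst1, which cover the alpha, mu, pi, theta, omega, kappa and microsomal classes. A gene was kept where the array held a probe set annotated with its symbol and no other symbol. Of the 10 genes, 9 were kept, out of 14217 genes measured this way. Where a gene had several such probe sets, the one used was to be chosen by its mean over the 35 arrays, but each of the 9 had just 1, so no measured value decided which probe set stands for a gene. Gsta2 was dropped because its probe set also carried the symbol of Gsta5. The genes were listed with the rise of Gsta3 at the highest dose already known, so that rise is given as a description of the gene that led to the list, and its p is not independent evidence.

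Glutathione S-transferases join the tripeptide glutathione to electrophilic compounds, which makes them more soluble and easier to export from the cell. The cytosolic classes (alpha, mu, pi, theta and omega) form dimers, the kappa enzyme lies in mitochondria and peroxisomes, and the microsomal enzymes are membrane proteins of another fold. Liver is rich in the alpha and mu classes, and several of their genes are known targets of the receptors and stress factors that respond to foreign chemicals, among them the aryl hydrocarbon receptor (AhR) and NRF2.

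The animals were male Sprague Dawley rats, 7 weeks old when dosing began. They received corn oil alone (vehicle, n = 5 arrays) or TBB, the brominated flame retardant 2-ethylhexyl-2,3,4,5-tetrabromobenzoate, in corn oil (n = 6 arrays at each dose), by gavage once a day for 5 days in 5 ml/kg. The low doses were 0.05 and 0.55 mg/kg, the middle ones 5.50 and 55 mg/kg, and the highest was 550 mg/kg. All groups, vehicle included, thus received the oil and the gavage, and the left liver lobe was taken the day after the last dose. RNA was hybridised to single-colour Affymetrix 3' arrays, and each value below is a log2 expression value of a probe set, so that a difference of 1 is a doubling. Probe sets differ in how strongly they bind their targets, so levels are compared for 1 gene across groups and never between genes. In whole liver, fewer cells of a type and less RNA per cell cannot be told apart. The hepatocyte genes Alb and Apoa1 lay at percentiles 100 and 99.8 of all probe sets by their mean over the 35 arrays.

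Across the 35 arrays, all pairs correlated between 0.988 and 0.996, and no pair held identical values. Over all 31042 probe sets tested, differences between a dose group and vehicle had a standard error of 0.085 at the median. The mean of 10 of 11 hepatocyte markers was lower at 550 mg/kg than in vehicle by a small margin (difference -0.084, 95% interval -0.12 to -0.052; range 13.32 to 13.36 in vehicle and 13.23 to 13.27 at 550 mg/kg), and 1 of the 10 was called lower. The mean of 9 of 10 markers of pericentral hepatocytes, the zone around the central vein, was higher by 0.20 (0.093 to 0.32; range 10.14 to 10.35 and 10.27 to 10.57), and by 0.10 (-0.020 to 0.22) without Cyp1a2, which is itself an AhR target. The mean of 3 of 5 red blood cell markers was lower (difference -0.33, -0.57 to -0.10; range 7.79 to 8.25 and 7.46 to 7.87), and the intervals of the 7 other marker lists included 0 at that dose. The pericentral mean, with Cyp1a2, was also higher at 5.50 mg/kg (0.15, 0.038 to 0.26) and 55 mg/kg (0.13, 0.020 to 0.24). The stellate and fibroblast mean was lower at 5.50 mg/kg (-0.24, -0.47 to -0.011). All other intervals of the marker lists below 550 mg/kg included 0. The differences between 3' and 5' control probe sets, which reflect how intact the RNA was, had intervals that included 0 at every dose. The part of these shifts in the results below was not tested.

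The promoter windows of 4 start sites are shown because they belong to the gene that changed most (Gsta3), to its relative of the same class (Gsta4) and to a gene whose change did not pass the test (Gstp1) but whose window holds the same kind of element as Gsta3. Each is the 250 bases before an annotated start in RefSeq, build GRCr8, written 5' to 3' on the strand of the gene. Capitals mark matches, on either strand, to TGACNNNGC, the core of the antioxidant response element that NRF2 binds, and to GCGTG, the core of the xenobiotic response element that the AhR binds.
Gsta3 first start, chr9:31154739-31154988, plus strand: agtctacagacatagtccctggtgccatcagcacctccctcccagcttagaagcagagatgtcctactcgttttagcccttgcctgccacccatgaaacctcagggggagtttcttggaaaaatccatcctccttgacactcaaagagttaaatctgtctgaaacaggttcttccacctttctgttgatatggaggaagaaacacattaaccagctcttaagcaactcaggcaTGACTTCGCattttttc
Gsta3 second start, chr9:31166793-31167042, plus strand: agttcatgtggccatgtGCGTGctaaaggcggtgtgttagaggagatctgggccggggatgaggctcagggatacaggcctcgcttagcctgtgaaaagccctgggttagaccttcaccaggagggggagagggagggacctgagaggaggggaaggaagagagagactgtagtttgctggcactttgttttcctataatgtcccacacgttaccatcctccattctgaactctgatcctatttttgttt
Gsta4, chr8:87947015-87947264, plus strand: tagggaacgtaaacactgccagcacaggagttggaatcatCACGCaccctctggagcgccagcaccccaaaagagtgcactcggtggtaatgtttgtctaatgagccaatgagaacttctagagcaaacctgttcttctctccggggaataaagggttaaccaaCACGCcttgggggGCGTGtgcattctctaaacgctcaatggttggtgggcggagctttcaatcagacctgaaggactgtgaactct
Gstp1, chr1:210769706-210769955, minus strand: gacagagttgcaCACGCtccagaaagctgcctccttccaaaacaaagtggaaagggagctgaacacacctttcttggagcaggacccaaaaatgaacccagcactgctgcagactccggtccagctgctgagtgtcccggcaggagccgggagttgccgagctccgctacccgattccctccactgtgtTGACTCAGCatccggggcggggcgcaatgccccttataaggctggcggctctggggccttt
The first Gsta3 window holds TGACTTCGC at positions -17 to -9 from the start, and the second holds 1 GCGTG match. The Gsta4 window holds 3 GCGTG matches and no TGACNNNGC match. The Gstp1 window holds TGACTCAGC at positions -61 to -53 and 1 GCGTG match. Of the 9 members, 8 had an entry and together 9 windows, of which 2 held TGACNNNGC and 4 held GCGTG. Over 33469 promoter windows of the same length, 10.1% held TGACNNNGC and 25.9% held GCGTG. A match describes the letters of the window and does not show that a factor binds there. Gstt1 was not among the 8.

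At 550 mg/kg, Gsta3 and Gstt1 rose against vehicle, and no member fell. Gsta3 was 3.46-fold higher and Gstt1 1.31-fold higher, while the other 7 members differed from vehicle by 0.04 to 0.33 on the log2 scale and did not pass the test. Thus 2 of 9 members were called higher at an adjusted p under 0.05, where 0.354% of all probe sets were called higher and 0.499% in either direction. Gsta3, which led to the list, is 1 of these 2, so the count is not independent evidence about the family. All 9 differences were positive, as were 51.0% of all probe sets, and their median was 0.16 against 0.0024 over all probe sets. The members were measured on the same arrays and are not separate tests of the dose.

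**Figure D1:**
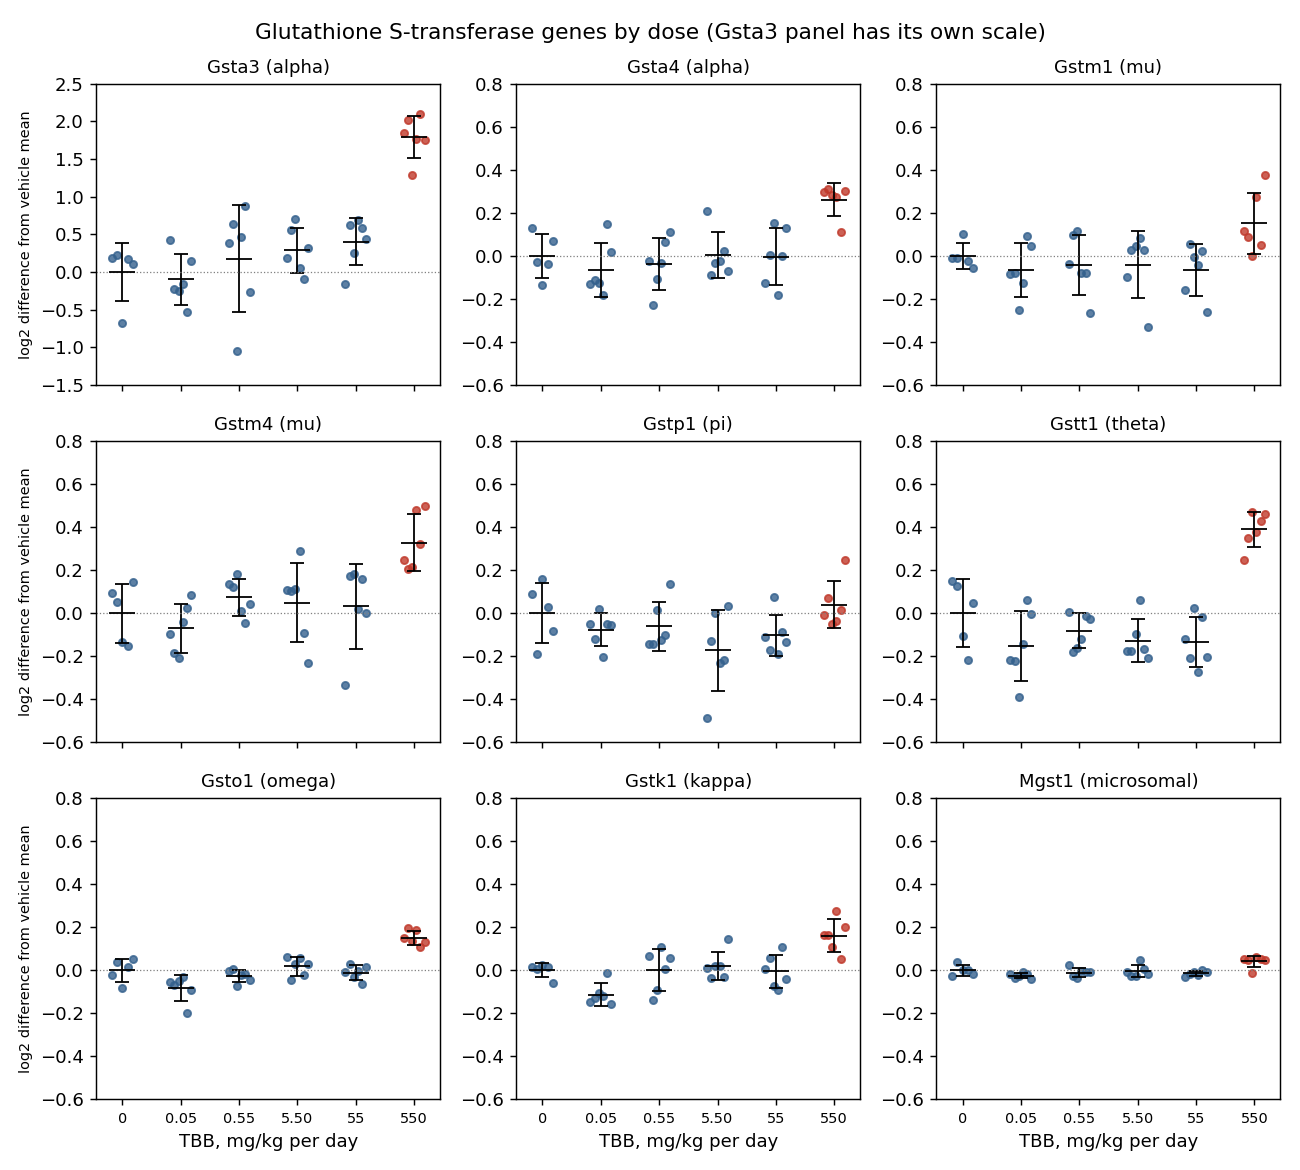
Log2 expression value minus the vehicle mean of the gene (vertical axis) for each of the 9 members, by dose group (horizontal axis, mg/kg per day, vehicle at 0 and doses evenly spaced); points are single arrays, red at 550 mg/kg, and the bars give the group mean with 1 SD (n = 5 for vehicle, n = 6 for each dose). The Gsta3 panel has its own vertical scale. Its 6 arrays at 550 mg/kg, between 8.52 and 9.33 on the log2 scale, sit above all 29 other arrays, while the groups of Gstp1 overlap.

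Among the alpha genes, Gsta3 encodes an alpha subunit that in rat is known for conjugating the epoxide of aflatoxin; the reference table lists Gsta5 and Yc2 as its other names. The Gsta5 on the probe set of Gsta2 is a different gene, since the annotation gives it a gene number of its own. Gsta3 values on the vehicle arrays were 7.42, 7.46, 6.56, 7.41 and 7.34. At 550 mg/kg they ran from 8.52 through a median of 9.04 to 9.33. Every array at 550 mg/kg lay above every vehicle array, and the groups did not overlap. The mean went from 7.24 ± 0.38 (SD, n = 5) to 9.03 ± 0.28 (SD, n = 6), a difference of 1.79 ± 0.24 (SE; 95% interval 1.31 to 2.27; limma, adjusted p = 2.55e-05).

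Below the highest dose, Gsta3 varied widely between arrays of a group. At 0.05 mg/kg it ran from 6.71 through a median of 7.05 to 7.67, and at 0.55 mg/kg from 6.19 through 7.66 to 8.11. At 5.50 mg/kg it ran from 7.15 through 7.49 to 7.95, and at 55 mg/kg from 7.08 through 7.75 to 7.93. These 4 groups all overlapped vehicle, and the 0.55 mg/kg group held both the lowest value of all 35 arrays and the highest below 550 mg/kg. The order of the group means was 0.05 mg/kg (7.14), vehicle (7.24), 0.55 mg/kg (7.41), 5.50 mg/kg (7.53), 55 mg/kg (7.64) and 550 mg/kg (9.03), and only the last step, from 55 to 550 mg/kg, separated neighbouring ranges. At 55 mg/kg the difference from vehicle was 0.40 (95% interval -0.074 to 0.88; adjusted p = 0.999).

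Gsta4 encodes the alpha enzyme that prefers 4-hydroxynonenal, an aldehyde from oxidised lipids. Its values were 11.34, 11.18, 11.08, 11.17 and 11.28 in vehicle, and at 550 mg/kg they ran from 11.32 through a median of 11.50 to 11.52. Most of the 550 mg/kg arrays lay above vehicle, with 1 overlapping. The difference of 0.26 ± 0.070 (SE; 0.12 to 0.40) did not pass the test over all probe sets (adjusted p = 0.0861). Within each array, the change of Gsta3 from vehicle to 550 mg/kg exceeded that of Gsta4 by 1.53 ± 0.26 (SE; 0.99 to 2.07; two-sided exact permutation test over 462 splits, p = 0.00216, adjusted p = 0.00432 over 2 pairs, the smallest such p being 0.0022). This pair involves Gsta3, whose rise was known when the pair was chosen.

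The mu genes Gstm1 and Gstm4 encode subunits that conjugate a wide range of aromatic and epoxide compounds. Gstm1 was 12.98, 12.98, 13.09, 12.96 and 12.93 in vehicle and ran from 12.99 through 13.09 to 13.36 at 550 mg/kg. These groups overlapped, and the difference of 0.15 ± 0.079 (SE; -0.0088 to 0.31) did not pass the test (adjusted p = 0.609). Gstm4 was 8.78, 8.74, 8.55, 8.53 and 8.83 in vehicle and ran from 8.89 through 8.97 to 9.18 at 550 mg/kg. Its groups did not overlap, yet the difference of 0.33 ± 0.087 (SE; 0.15 to 0.51) did not pass the test either (adjusted p = 0.0884). The change of Gstm1 differed from that of Gstm4 by -0.18 ± 0.073 (SE; -0.32 to -0.028; two-sided exact permutation test, p = 0.0303, adjusted p = 0.0303 over 2 pairs). This difference rested on single arrays: its adjusted p was 0.0905 without vehicle replicate 3, and the exact test also missed the threshold without vehicle replicate 4 or any 1 of 550 mg/kg replicates 3, 4 and 5. In vehicle the Gstm1 probe set lay at percentile 99.7, close to the top of the scale, and that of Gstm4 at 88.7. Whether these levels affect the size of the changes was not tested.

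Gstp1 is the pi-class gene, known in rat liver for its low level in normal hepatocytes and its strong expression in preneoplastic foci. It was 9.06, 8.78, 9.13, 8.99 and 8.88 in vehicle and ran from 8.92 through 8.97 to 9.21 at 550 mg/kg. The 550 mg/kg values lay almost wholly within the vehicle range, and the difference was 0.04 ± 0.076 (SE; -0.12 to 0.19; adjusted p = 0.938). The interval reaches a log2 change of 0.19, so a rise as large as that of Gsta3 lies outside it.

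Gstt1 is the theta gene, whose enzyme acts on small halogenated compounds such as dichloromethane. In vehicle it was 9.61, 9.58, 9.35, 9.24 and 9.51, and at 550 mg/kg it ran from 9.71 through 9.86 to 9.93. All 6 arrays at 550 mg/kg lay above all 29 others, whose highest value was 9.61. The mean went from 9.46 ± 0.16 (SD, n = 5) to 9.85 ± 0.08 (SD, n = 6), a difference of 0.39 ± 0.074 (SE; 0.24 to 0.54; limma, adjusted p = 0.00518). In a fit of these 2 groups alone the adjusted p of Gstt1 was 0.0687.

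Gsto1, the omega gene, encodes an enzyme that reduces dehydroascorbate and methylated arsenic acids. It was 11.31, 11.37, 11.25, 11.35 and 11.38 in vehicle and ran from 11.44 through 11.48 to 11.53 at 550 mg/kg. Here too all 6 arrays at 550 mg/kg lay above the other 29, but by a narrow gap, from 11.39 to 11.44. The difference of 0.15 ± 0.039 (SE; 0.072 to 0.23) did not pass the test (adjusted p = 0.0678), and it did pass under 5 of 9 alternative settings.

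Gstk1, the kappa gene of mitochondria and peroxisomes, was 11.42, 11.41, 11.43, 11.42 and 11.35 in vehicle and ran from 11.46 through 11.57 to 11.68 at 550 mg/kg. The groups did not overlap, and the difference of 0.16 ± 0.050 (SE; 0.060 to 0.26) did not pass the test (adjusted p = 0.191). Mgst1 encodes the microsomal transferase of the endoplasmic reticulum and outer mitochondrial membrane, which also reduces lipid hydroperoxides. It was 13.79, 13.86, 13.82, 13.82 and 13.80 in vehicle and ran from 13.81 through 13.87 to 13.88 at 550 mg/kg, a difference of 0.04 ± 0.032 (SE; -0.025 to 0.11; adjusted p = 0.797). Its probe set lay at percentile 99.9 in vehicle, close to the top of the scale. In all, 5 of 9 members (Gsta3, Gstm4, Gstt1, Gsto1 and Gstk1) had every 550 mg/kg value above every vehicle value, where 0.796% of all probe sets did. That count also includes Gsta3, which led to the list.

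The step from 55 to 550 mg/kg was tested by itself, with 6 arrays on each side. It gave 4 of 9 members called higher, where 0.577% of all probe sets were (0.686% in either direction), and it shares its 550 mg/kg arrays with the comparison against vehicle. The counts of this step include Gsta3, which led to the list. Gsta3 rose by 1.39 ± 0.22 (SE; 0.93 to 1.84; limma, adjusted p = 0.000589) and Gstt1 by 0.52 ± 0.070 (SE; 0.38 to 0.66; adjusted p = 3.88e-05). Gsto1 rose by 0.16 (adjusted p = 0.024) and Gsta4 by 0.27 (adjusted p = 0.0495). The call of Gsta4 is the weakest of the 4: it was lost in 9 of 12 fits that left out 1 array (adjusted p from 0.0288 to 0.164). The call of Gsto1 was lost without 55 mg/kg replicate 1 or 5 or 550 mg/kg replicate 2 or 4. The other 5 members differed by 0.06 (Mgst1) to 0.30 (Gstm4) with adjusted p from 0.0994 to 0.616. Gsta3, Gstm4, Gstt1 and Gsto1, 4 of 9 members, had groups that did not overlap, where 0.825% of all probe sets did not overlap in that direction.

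**Figure D2:**
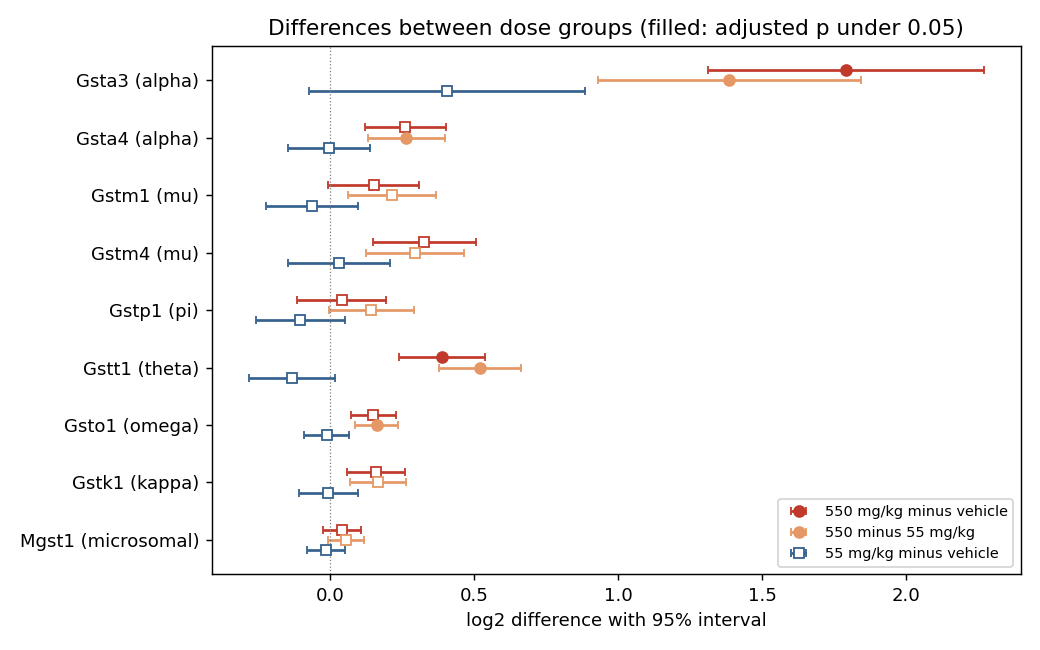
Differences in log2 expression value (horizontal axis) for each of the 9 members (rows): 550 mg/kg minus vehicle, 550 minus 55 mg/kg, and 55 mg/kg minus vehicle. Points are limma estimates, filled where the adjusted p was under 0.05, and bars are 95% intervals (n = 5 for vehicle, n = 6 for each dose). Gsta3 at 550 mg/kg lies 1.79 above vehicle, and the other members lie between 0.04 and 0.39 above it.

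At the 4 lower doses no member passed the test. At 55 mg/kg 0 of 9 members were called, where 0.00644% of all probe sets were, and their differences from vehicle ran from -0.13 (Gstt1) to 0.40 (Gsta3). At 5.50, 0.55 and 0.05 mg/kg 0 of 9 were called and 0% of all probe sets. The limma p before adjustment was under 0.05 for 0 members at 55 mg/kg (4.20% of all probe sets), 1 at 5.50 mg/kg (Gstp1, difference -0.17; 4.95%), 0 at 0.55 mg/kg (3.86%) and 3 at 0.05 mg/kg (Gstt1, Gsto1 and Gstk1; 6.05%). At 0.05 mg/kg all 9 differences were negative, from -0.15 (Gstt1) to -0.025 (Mgst1), where 51.9% of all probe sets were positive, and the smallest adjusted p was 0.802. The comparisons at the 5 doses share the 5 vehicle arrays. From 5.50 to 55 mg/kg 0 of 9 members were called, and 0.00644% of all probe sets.

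Against the rank of the dose (vehicle 0, 550 mg/kg 5) Gsta3 was the 1 member of 9 with a called trend, where 0.171% of all probe sets had one and 0.0966% a rising one. Its slope was 0.31 ± 0.051 per rank (SE; 0.21 to 0.41; limma, adjusted p = 0.00358). Gsta3 led to the list through its rise at 550 mg/kg, so neither this count nor this p is independent evidence. Gsto1 had a slope of 0.03 per rank (adjusted p = 0.0894), and Gstt1, whose means below 550 mg/kg all lay under that of vehicle, had 0.06 (adjusted p = 0.219). The slope assumes equal steps between ranks, whereas the means of Gsta3 rose mostly at the last step.

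Other genes of the transferase families were looked at from a list of 22 that excludes the members, and 17 were measured. The 17 include Ptges and Alox5ap, which were counted as relatives and not as glutathione transferases. At 550 mg/kg against vehicle 2 of 17 rose, 0 fell and 10 were positive, with a median of 0.12 and a range from -0.36 to 0.60. Over all probe sets 0.354% were called higher, 0.499% were called in either direction and 51.0% were positive. Gsta1, an alpha gene that lies on the same chromosome as Gsta3, rose by 0.22 ± 0.045 (SE; adjusted p = 0.0129), and Mgst2, a microsomal transferase that also makes leukotriene C4, by 0.30 ± 0.069 (SE; adjusted p = 0.0339). Gsta1 no longer passed when vehicle replicate 1 was left out (adjusted p = 0.0553) or in a fit of the 2 groups alone (adjusted p = 0.213), and Mgst2 no longer passed in 8 of 11 fits that left out 1 array. The differences of Gstt3 (0.60, adjusted p = 0.253) and Gstm2 (0.46, adjusted p = 0.0697) were larger but did not pass the test, and their values were spread more widely. The lowest difference of the list, that of Ltc4s (-0.36, adjusted p = 0.347), did not pass either. Its 550 mg/kg values all lay below those of vehicle. Against 55 mg/kg Gsta1 rose by 0.18 (adjusted p = 0.0335) and Mgst2 by 0.36 (adjusted p = 0.00285). That call of Gsta1 was lost in 8 of 12 fits that left out 1 array (adjusted p from 0.00753 to 0.0984). Gene names in this family have moved between genes over time, and near-identical members can share probes, so a probe set may also bind a relative of the gene it is named for.

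Genes that supply, recycle or use glutathione were counted from a list of 46, of which 43 were measured. At 550 mg/kg against vehicle 4 rose, 1 fell and 28 were positive, with a median of 0.069. The shares of all probe sets were 0.354% called higher, 0.499% called in either direction and 51.0% positive. Of the recycling genes 1 of 4 rose: Gsr, the reductase that restores oxidised glutathione, by 0.45 ± 0.093 (SE, adjusted p = 0.014), a call lost without vehicle replicate 1 (adjusted p = 0.0621). Me1, also of this role, was 0.56 higher and did not pass (adjusted p = 0.0797). A second, dimmer probe set of Me1 was 0.22 higher (adjusted p = 0.852). Against 55 mg/kg, 2 of the 4 recycling genes were called higher, where 0.577% of all probe sets were. Of the 6 thiol exchange genes 1 rose: Txn1, thioredoxin, by 0.22 ± 0.052 (SE; adjusted p = 0.0383), a call lost in 10 of 11 fits that left out 1 array.

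Of the 8 genes that handle conjugates after the transferase step, 2 rose and 1 fell. Over all probe sets, 0.354% were called higher and 0.499% in either direction. Abcc3, a pump that exports conjugates from hepatocytes to blood, rose by 1.06 ± 0.20 (SE, adjusted p = 0.0047) from a low vehicle mean of 5.10. Its groups overlapped: the lowest 550 mg/kg value, 5.25, lay within the vehicle range of 4.88 to 5.49. Kyat1, a lyase that cleaves cysteine conjugates, rose by 0.32 ± 0.061 (SE; adjusted p = 0.00443). Acy3, which removes the acetyl group from mercapturic acids, fell by 0.63 (difference -0.63 ± 0.10, SE; adjusted p = 0.000439). In a fit of the 2 groups alone Abcc3 (adjusted p = 0.111) and Kyat1 (adjusted p = 0.0777) no longer passed.

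Of the 6 synthesis genes none passed the test, and the smallest p belonged to Gss, glutathione synthetase (-0.24, adjusted p = 0.52). Gclc and Gclm, the subunits of the rate-limiting ligase of glutathione synthesis, differed by -0.14 (adjusted p = 0.798) and 0.07 (adjusted p = 0.894). None of the 6 peroxidase genes (smallest p for Gpx7, 0.16, adjusted p = 0.697), 9 breakdown genes (Ggct, -0.31, adjusted p = 0.192) or 4 other thiol genes (Glo1, 0.07, adjusted p = 0.735) passed either. A second probe set of Glrx, a glutaredoxin, was 0.39 higher (adjusted p = 0.00968) where its brighter one was 0.26 higher and did not pass (adjusted p = 0.117).

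**Figure D3:**
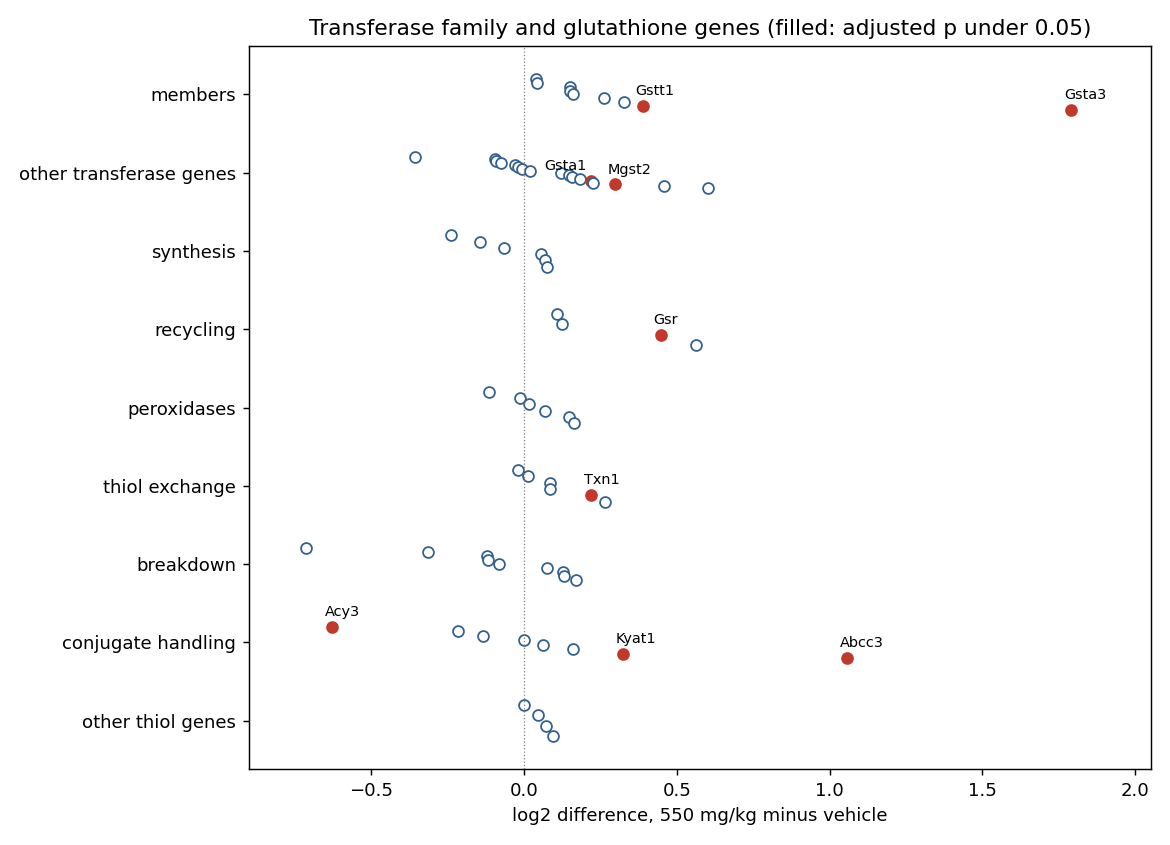
Difference in log2 expression value at 550 mg/kg minus vehicle (horizontal axis) for the 9 members, the 17 other genes of the transferase families and the 43 glutathione genes by role (rows). Each point is 1 gene, filled where the limma adjusted p was under 0.05, and vertical offsets within a row only separate points. Gsta3 lies at 1.79, and among the other genes called Abcc3 reaches 1.06 and Acy3 -0.63.

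Cyp1a1, the classic target of the AhR, and Nqo1, a quinone reductase driven by both NRF2 and the AhR, were read beside the members. Cyp1a1 was 162-fold above vehicle at 550 mg/kg (adjusted p = 7.69e-22) and already 19.1-fold above it at 55 mg/kg (adjusted p = 2.54e-14), a dose at which no member passed. Its vehicle mean was low, at 4.53, so the size of these folds is less certain than their direction. Nqo1 was 3.39-fold above vehicle at 550 mg/kg (adjusted p = 2.81e-09) and differed by 0.17 (adjusted p = 0.999) at 55 mg/kg. Gsta3, with differences of 0.40 and 1.79 at these doses, was called at 550 mg/kg and not at 55 mg/kg, as was Nqo1; whether their dose patterns differ was not tested.

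**Figure D4:**
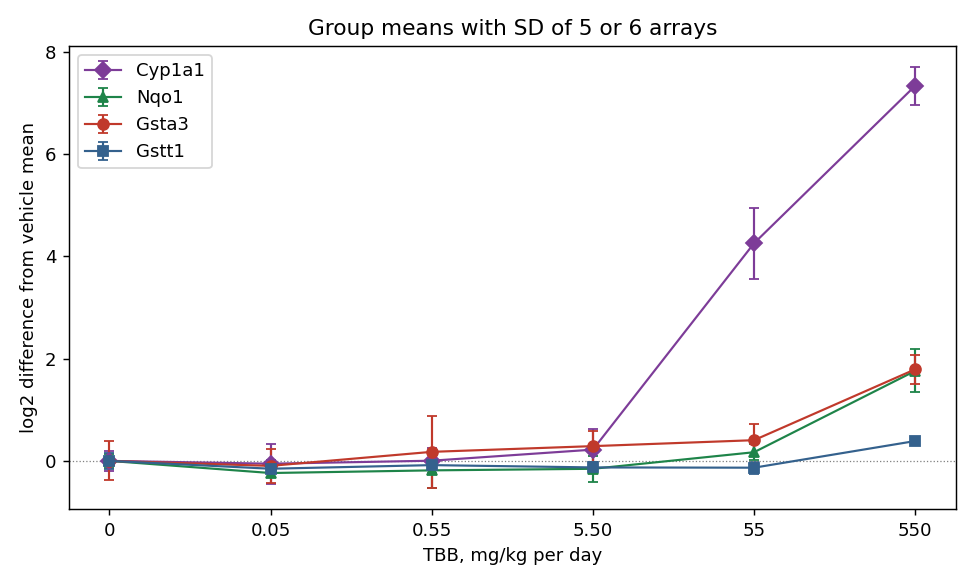
Group mean log2 expression value minus the vehicle mean (vertical axis) by dose (horizontal axis, mg/kg per day, evenly spaced) for Cyp1a1, Nqo1, Gsta3 and Gstt1; bars are 1 SD (n = 5 for vehicle, n = 6 for each dose). Cyp1a1 has risen by 4.26 at 55 mg/kg and 7.34 at 550 mg/kg, while Gsta3 stands at 0.40 and 1.79.

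The genes outside the family whose values followed Gsta3 most closely over the 35 arrays were Aig1 (Pearson r = 0.888), Aldh1a1 (0.879), Nqo1 (0.864), Cyb5a (0.859) and Ehhadh (0.855). The 550 mg/kg arrays form a cluster of their own for Gsta3, so these values mix the dose with variation between arrays. Among the 29 arrays below 550 mg/kg, r was 0.719 for Aldh1a1, a retinal dehydrogenase, 0.601 for Aig1, an androgen-induced hydrolase, and 0.599 for Cyb5a, a cytochrome b5. Within the 6 arrays at 550 mg/kg, r was 0.960 for Aldh1a1 and 0.174 for Cyb5a. With the group means removed, r was 0.768 for Aldh1a1, 0.631 for Aig1, 0.532 for Ehhadh, 0.474 for Cyb5a and 0.420 for Nqo1. The middle 95% of 14216 genes lay between -0.415 and 0.419, and Nqo1 sat at the edge of that range. The named genes were picked by their r over the same 35 arrays, which already contains the variation within groups. Their place against that range is thus partly set by the choice, and no conclusion is drawn from it. All these values share the arrays and their normalisation, and they are a description without a test.

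Inside the family, Gsta1 followed Gsta3 most closely, with r of 0.884 over 35 arrays, 0.637 over the 29 below 550 mg/kg, 0.966 over the 6 at 550 mg/kg and 0.606 with group means removed. Both are alpha genes of similar sequence, so shared probes could not be told apart from shared variation here. Both were also lowest at 550 mg/kg in replicate 3, and r without that array was not computed. Gsto1 came next with 0.808 over 35 arrays and 0.393 with group means removed. Gstt1, the other member that rose at 550 mg/kg, had 0.684 over 35 arrays and -0.0068 with group means removed.

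Among the 9 members, the 36 pairs had r between -0.44 (Gstp1 and Gsto1) and 0.63 (Gstm1 and Gstm4) with group means removed, with a median of 0.016 and 20 positive. The mu pair was the closest of all. Its genes lie on 1 chromosome and are alike in sequence, so the same limit on shared probes holds for that pair.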

How the data were processed

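The deposited table gives each probe set a log2 value, which the authors computed by RMA in affy, per the submitters' processing notes, where no version or filter is named. RMA by its usual definition corrects background, quantile-normalises the arrays and summarises probes, so a shift shared by most genes cannot be seen. Of 31099 probe sets, 57 controls were left out. Of the 31042 tested, 20826 had 1 symbol, 436 several and 9780 none in the platform annotation.

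All 35 arrays were fitted in 1 linear model by dose group with limma 3.58.1 in R 4.3.3, without the replicate number. Tests were two-sided, with Benjamini-Hochberg adjustment over all 31042 probe sets and a threshold of 0.05. In simulated data the fit recovered 49 of 50 probe sets with a log2 change of 1 and 17 of 50 with a change of 0.25 for 550 mg/kg against vehicle. Whether each array is a separate animal is not stated, so p-values measure the spread between these samples. Precision is limited by how many arrays there are.

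The members and lists were chosen with earlier results of these data known. Every member with a probe set of its own is named. Of the other genes of the transferase families those past the threshold are named, and otherwise the 2 with the smallest p. Of glutathione genes up to 6 called ones are named, and the smallest p of each role without a call. Gstt3, Gstm2, Ltc4s, Me1, Gclc, Gclm and the second Glrx probe set were added after their values were seen. The 5 genes most like Gsta3 were taken by Pearson r, and Cyp1a1 and Nqo1 were named whatever their values.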

Additional observations from a re-analysis of the deposited data

Results flagged for a closer look

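In 9 of 54 groups of a member's values, the highest or lowest array stood apart from the others of its group by more than Dixon's 95% limit. For normal values, chance alone gives about 1 in 20. The groups share arrays between members, and the share over all probe sets was not computed. Gsta3 was 6.56 in vehicle replicate 3, where the next lowest vehicle value was 7.34. Gsta4 was 11.42 in replicate 1 at 5.50 mg/kg (next 11.23) and 11.32 in replicate 5 at 550 mg/kg (next 11.48). Gstm4 was 8.35 in replicate 1 at 55 mg/kg (next 8.69). Replicate 5 at 0.05 mg/kg stood apart for both Gsto1, lowest at 11.14 (next 11.24), and Gstk1, highest at 11.39 (next 11.30). Gstk1 was also lowest in vehicle replicate 5 at 11.35 (next 11.41) and highest in replicate 6 at 5.50 mg/kg at 11.55 (next 11.43). Mgst1 was 13.81 in replicate 3 at 550 mg/kg (next 13.87). That array was also the lowest of its group for Gsta3, Gsta1, Mgst2, Gsr, Txn1, Abcc3 and Nqo1, and the highest for Gstt1 and Gstm2.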

How the results depend on the processing

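The rise of Gsta3 at 550 mg/kg passed the threshold under all 9 alternatives (1.77 to 1.81, adjusted p from 7.54e-06 to 0.000347) and in all 11 fits without 1 array (1.62 to 1.89, adjusted p from 1.23e-05 to 0.000351). All 9 members stayed positive at 550 mg/kg under those 9 alternatives, and in the fits without 1 array all but Gstp1, which was at -0.0084 without vehicle replicate 2 and -0.0015 without 550 mg/kg replicate 6. The number of members called against vehicle was 2, and 2 in each fit without 1 array. It was 4 with eBayes trend and robust settings and 4 with 1 probe set per gene, and 1 with only the 2 groups fitted. Between 55 and 550 mg/kg the number was 4, and 2 to 6 under the alternatives: 2 with only the 2 groups fitted and 6 with no variance moderation, which added Gstk1 and Mgst1. It was 2 to 4 without 1 array (2 without 55 mg/kg replicate 1 or 5, or 550 mg/kg replicate 2 or 4). The trend was called for 1 member, and for 2, with Gsto1 added, without the 40% dimmest probe sets, with eBayes trend and robust settings, with no variance moderation, with array weights and with 1 probe set per gene. Without 1 array it ranged from 1 to 2, reaching 2 without vehicle replicate 2. The causes were not tested. The counts at the lower doses were 0 throughout, also from 5.50 to 55 mg/kg.

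The difference in change of Gsta3 over Gsta4 ranged from 1.39 to 1.63 without 1 array (exact test, adjusted p from 0.00476 to 0.0159). That of Gstm1 against Gstm4 ranged from -0.23 to -0.12 (exact test, adjusted p from 0.00476 to 0.0905). Among the other genes of the transferase families, 2 were called at 550 mg/kg against vehicle, and 0 to 3 under the alternatives. Among the glutathione genes, 5 were called, and 2 to 6 under the alternatives.

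Over 85 pairs of arrays with the same replicate number in different groups, deviations correlated between -0.31 and 0.27, with a median of -0.0092. Of these pairs, 17 exceeded 0.1. Pairs with different numbers were not set beside them, so whether the numbers pair the arrays was not tested. With the replicate number as a block, 2 members were called against vehicle, 3 between 55 and 550 mg/kg, and 1 for the trend. Averaging several probe sets of a member was not run, because each had 1.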
